A study of Schmidtea mediterranea with 5 samples.

Results

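Muscle contraction rests on actin and myosin filaments that are anchored by a scaffold of cross-linking proteins, and on the movement of calcium into the cytoplasm and back into its store. In planarians the muscle fibres lie under the epidermis, around the gut and along the dorsal-ventral axis, and muscle cells are also known as the source of the positional signals that guide regeneration. The 6 contigs (assembled transcripts) described here are named for this machinery. The contig dd_Smed_v6_2337_0 entered the set as a muscle marker and had no gene name in the sources used here. The others were chosen because a supplementary gene list of the study pairs them with human genes. They are dd_Smed_v6_10174_0 (ACTN2-like, alpha-actinin, which cross-links actin filaments), dd_Smed_v6_10318_0 (LDB3-like, a protein that binds alpha-actinin in the Z-disc of vertebrate muscle), dd_Smed_v6_10479_0 (KY-like, a transglutaminase-like protein needed for muscle upkeep in mice), dd_Smed_v6_1006_0 (ATP2A2-like, the SERCA pump that returns calcium to the endoplasmic or sarcoplasmic reticulum) and dd_Smed_v6_10156_0 (CACNA1C-like, the pore subunit of an L-type voltage-gated calcium channel). All 6 were among the 28040 contigs counted. The names rest on sequence similarity, and another supplementary list of the study gives other names for the same contigs, so that each name is a label here and not an established identity.

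The cells came from post-pharyngeal wound fragments of *Schmidtea mediterranea* of the CIW4 strain, a clonal asexual line, and were profiled in 5 droplet-based scRNA-seq libraries. There was 1 library of fragments at 0 h post amputation (hpa), 1 of anterior-facing wounds at 6 hpa, 2 of anterior-facing wounds at 18 hpa and 1 of posterior-facing wounds at 18 hpa. The animals had no RNAi, except those of the second 18 hpa anterior-facing library (replicate 2), which were fed *unc-22* dsRNA 4 times. In the study this was a control dsRNA, and the library served as a replicate of its time point. *unc-22* is a *C. elegans* gene of the muscle filament, and whether the dsRNA matches a planarian contig was not tested. Cells were gated as X-insensitive, which by DNA content leaves out the dividing cells that irradiation removes. By the labels the 6 hpa cells were sorted on calcein and those of the other libraries on low propidium iodide. The study's text assigns the stains to the libraries differently, and time and stain cannot be told apart at 6 hpa. Many animals were pooled for each library, and the labels' 18 hpa are given as 16 hpa in the study's text. Each time and wound side other than the 18 hpa anterior-facing pair was thus measured once.

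The libraries held between 21746895 and 37981205 UMIs (unique molecular identifiers, each standing for 1 captured transcript) and gave between 3560 and 6827 cells, 23632 in all. The median was 1738 UMIs per cell at 6 hpa and between 3671 and 4414 in the other libraries. Pairs of libraries shared between 1 and 11 cell barcodes, where 1.93 to 5.13 were expected by chance. Levels are given in CPM, the UMIs of a contig scaled to the total UMIs of the same cells, with exact 95% Poisson intervals that cover counting error only. Cells were clustered without the 6 contigs. Of 29 clusters, 12, 15 and 20, with 2136 cells, were called muscle-like from other markers. In each library 8 or 9 of the 13 muscle markers were highest in this class. The markers dd_Smed_v6_1054_0 (8.33 against 150 CPM in other cells) and dd_Smed_v6_1706_0 (1.58 against 116 CPM) were lower in it, as were dd_Smed_v6_10468_0 and dd_Smed_v6_10591_0. Clusters holding 7498 cells were left unnamed. Among them, clusters 5 (1371 cells) and 25 (354 cells) carried 5 of the 13 muscle markers each, and clusters 19 and 29 carried 4. This fell short of the 40% that the naming rule required. dd_Smed_v6_1054_0 was among the 6 leading contigs of clusters 5 and 25, and dd_Smed_v6_1706_0 among those of cluster 29. The neoblast-like clusters carried 5 or 6 of the 11 neoblast markers despite the gate, and are called so by this rule alone. They were cluster 4 in most libraries and cluster 9 at 6 hpa, which gave 926 of the 958 cells of cluster 9.

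The contigs fell into 3 patterns. dd_Smed_v6_2337_0 and the LDB3-like contig were found almost wholly in muscle-like cells. Among the classes the KY-like and CACNA1C-like contigs were highest in muscle-like and neuron-like cells, and the ATP2A2-like contig was found in every class. The ACTN2-like contig was near the limit of detection. Of the UMIs found in cells, muscle-like cells held 96.9% for dd_Smed_v6_2337_0, 98.1% for LDB3-like, 76.5% for ACTN2-like, 49.2% for CACNA1C-like, 31.1% for KY-like and 10.6% for ATP2A2-like, while the class held 7.97% of all UMIs. Neuron-like cells held 29% of the KY-like and 10.6% of the CACNA1C-like UMIs, and 3.21% of all UMIs. Unnamed cells held 23.1% of the KY-like and 29.8% of the CACNA1C-like UMIs, and 29% of all UMIs.

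**Figure D1:**
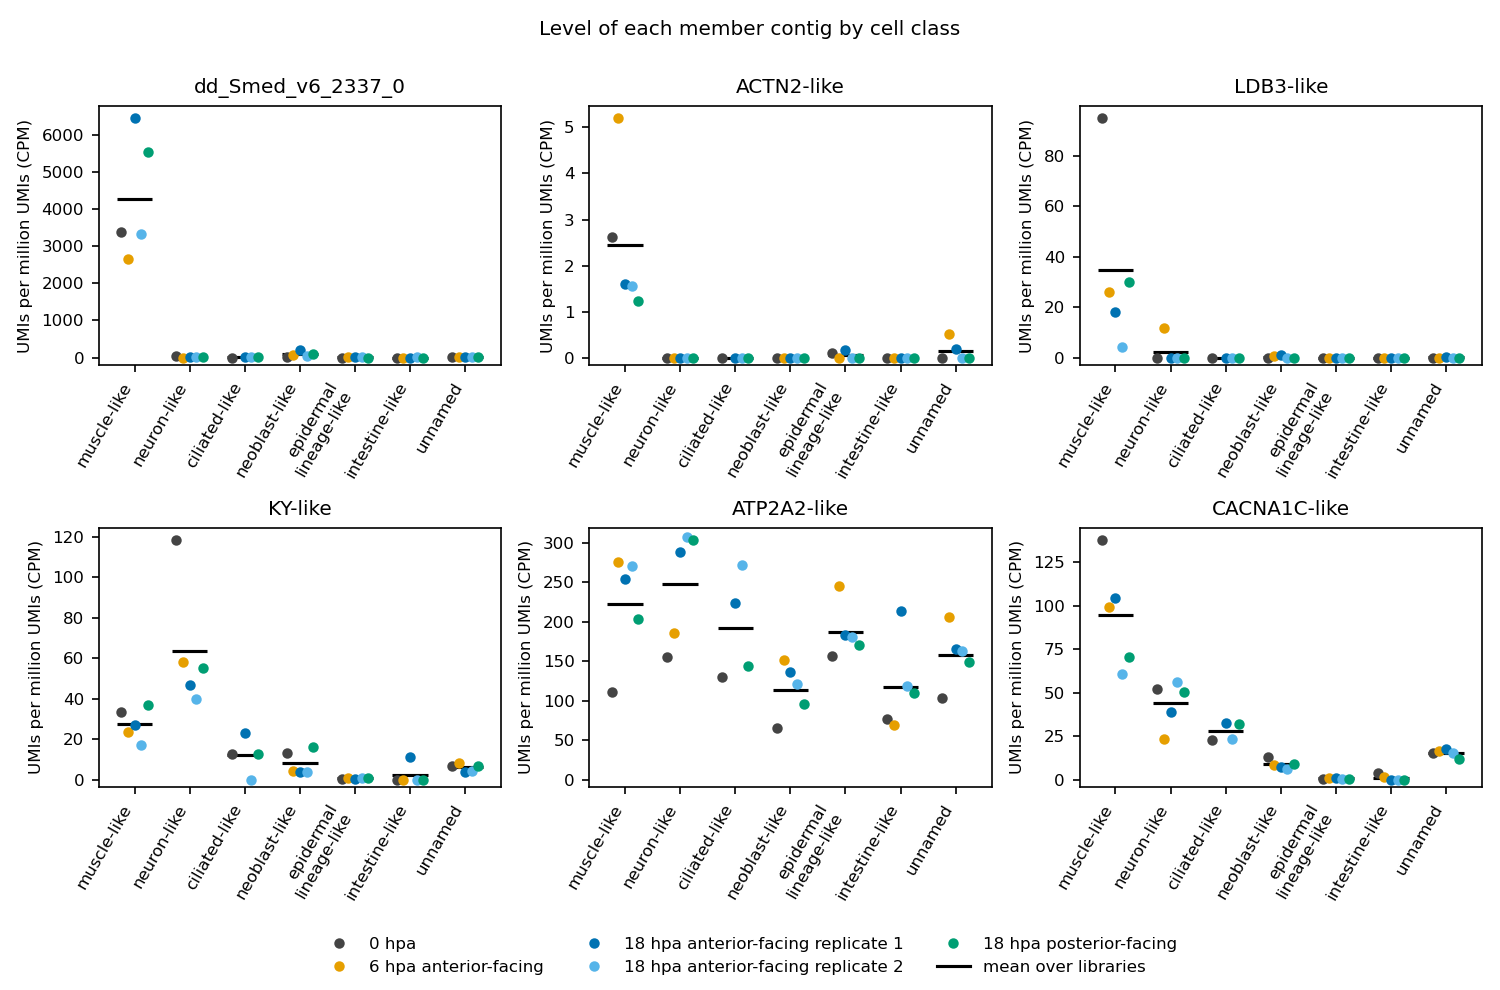
Level of each of the 6 contigs (y axis, CPM, a linear scale that differs between panels) in each class of cells (x axis). Each point is 1 library with at least 20 cells of the class and the line is their mean. The LDB3-like contig ran from 4.17 to 95.1 CPM in muscle-like cells and was at most 11.6 CPM elsewhere (1 UMI, neuron-like cells at 6 hpa), whereas the ATP2A2-like contig lay between 65.7 and 307 CPM in all classes.

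dd_Smed_v6_2337_0 was at 3394 CPM at 0 hpa, 2668 at 6 hpa, 6458 and 3318 in replicates 1 and 2 of the anterior-facing wound at 18 hpa and 5527 in the posterior-facing library, all in muscle-like cells. Its lowest muscle-like library was far above its highest library of any other class, which was 202 CPM. As this contig was chosen as a muscle marker, the difference is a description. It was found in 2053 of the 2136 muscle-like cells (96.1%), and, although it had not been used for clustering, it stood among the 6 leading contigs of each of the clusters 12, 15 and 20. Outside muscle its mean over libraries was highest in neoblast-like cells, with 28.6 CPM at 0 hpa, 69.3 at 6 hpa, 202 and 46.3 in the 18 hpa anterior-facing replicates and 102 in the posterior-facing library. At 0 hpa it was higher in neuron-like cells, at 44.2 CPM, than in neoblast-like cells. In neoblast-like cells 6.90% had a UMI of it, compared with 0.870% of the epidermal lineage-like cells, at medians of 1490 to 4728 and 2112 to 5396 UMIs per cell. Both neoblast-like clusters, 4 and 9, had it at 83.2 and 83.5 CPM, and in both 2 muscle markers also led. Barcodes with fewer than 100 UMIs, which hold mostly free RNA, had it at 128.5, 78.9, 324, 357 and 234.5 CPM in the same order of libraries, and the part of this RNA in the neoblast-like level was not tested.

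The LDB3-like contig gave 214 UMIs in all cells, of which 210 lay in muscle-like cells. The muscle-like level was 95.1 CPM at 0 hpa (78.1–114.7), 26.05 at 6 hpa (12.5–47.9), 18.1 (12.5–25.2) and 4.17 (1.80–8.21) in the 18 hpa anterior-facing replicates and 30.1 (22.3–39.8) in the posterior-facing library. The other cells held 4 UMIs of it over all libraries, and none in 3 of the 5 libraries. Pooled over libraries this was 30.2 against 0.0498 CPM, a ratio of 606 with a counting interval of 233 to 2245. It could enter the fit of muscle-like against all other cells only through its muscle-like UMIs, so that its fitted log2 fold change of 8.99 ± 0.64 (approximate standard error, n = 5 libraries, edgeR with the library as a block) is a description and no bound. It was detected in 168 muscle-like cells (7.87%), compared with 0 of 9309 epidermal lineage-like cells, which allows a share of cells with a UMI of up to 0.0396% (exact binomial) and does not limit the share that express it. The muscle-like cells had a median of 3154 UMIs.

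The ACTN2-like contig gave 17 UMIs in 17 cells among 23632. Of these, 13 UMIs were in muscle-like cells, with 3, 2, 3, 3 and 2 UMIs in the same order of libraries. The muscle-like level was 1.87 CPM against 0.0498 in all other cells, a ratio of 37.5 with a counting interval of 11.6 to 158. It did not pass the filter on low counts and was not tested. Differences between times or wound sides were not detectable at this depth, since the 95% interval at 6 hpa, for instance, ran from 0.631 to 18.8 CPM.

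The KY-like contig was highest in neuron-like cells, and not in muscle. In muscle-like cells it was at 33.2 CPM at 0 hpa (23.5–45.5), 23.5 at 6 hpa (10.7–44.5), 27.1 (20.2–35.6) and 17.2 (11.8–24.1) in the 18 hpa anterior-facing replicates and 36.8 (28.1–47.4) in the posterior-facing library. In neuron-like cells the levels were 119, 58.2, 46.9, 39.9 and 55.03 CPM in the same order. The level was higher in neuron-like cells in each of the 5 libraries, and the ranges over libraries, 17.2 to 36.8 and 39.9 to 119 CPM, did not overlap. This difference was not tested, and at 6 hpa, with 5 UMIs in neuron-like cells, the counting intervals overlapped. Cluster 8 held 173 of the 178 neuron-like UMIs (74.4 CPM), and cluster 27, the other neuron-like cluster, held 5 (10.5 CPM). Against all other cells, neurons included, it was still higher in muscle-like cells, by 2.46 ± 0.18 on the log2 scale (n = 5 libraries; adjusted p = 1.1e-06, edgeR). Ciliated-like, neoblast-like and unnamed cells followed at means of 12.1, 8.06 and 5.98 CPM, with ranges that overlapped each other, and the epidermal lineage-like cells were lowest, at 0.578 CPM. The 178 neuron-like UMIs lay in 87 cells and the 191 muscle-like UMIs in 164. A UMI was found in 7.68% of muscle-like, 7.67% of neuron-like and 0.247% of epidermal lineage-like cells.

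Among the classes the CACNA1C-like contig was highest in muscle-like cells, at 138 CPM at 0 hpa (117–161), 99 at 6 hpa (70.1–136), 105 (90.5–120) and 60.9 (50.4–73.0) in the 18 hpa anterior-facing replicates and 70.6 (58.3–84.8) in the posterior-facing library. It was 3.53 ± 0.17 higher there on the log2 scale than in all other cells (n = 5 libraries; adjusted p = 6.1e-08, edgeR). Neuron-like cells came next, at 52.1, 23.3, 39.1, 56.1 and 50.3 CPM in the same order of libraries. Each muscle-like level was above the neuron-like level of its own library. The values were closest in 18 hpa anterior-facing replicate 2, at 60.9 and 56.1 CPM, and the counting intervals overlapped there, at 6 hpa and at the posterior-facing wound. Among unnamed cells it reached 93.7 CPM in cluster 18 (81.3–108) and 55.1 in cluster 17 (44.5–67.4). The muscle-like clusters 12, 15 and 20 had it at 75.9, 35.4 and 198 CPM, pooled over libraries. Clusters 18 and 17 had 5 and 4 neuron markers and 2 parenchyma markers each among their leading contigs, and cluster 18 had 1 muscle marker. It was close to absent from epidermal lineage-like cells, with 23 UMIs in 9309 cells.

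UMIs of the ATP2A2-like contig were found in every class, and its levels overlapped between all neighbouring classes. Free RNA (barcodes with fewer than 100 UMIs) had it at 84.9 CPM at 0 hpa, 103 at 6 hpa, 132 and 219 in the 18 hpa anterior-facing replicates and 122 in the posterior-facing library. These values span the means of the ciliated-like, epidermal lineage-like, unnamed, intestine-like and neoblast-like cells, while the neuron-like and muscle-like means lay above them. The part of this RNA in any class was not tested. In muscle-like cells it was at 110.8 CPM at 0 hpa (92.35–131.8), 276 at 6 hpa (226–334), 254 (232–278) and 270.3 (247.5–294.5) in the 18 hpa anterior-facing replicates and 203.9 (182.5–227) in the posterior-facing library. Neuron-like cells had a mean of 248 ± 72.1 CPM (SD, n = 5 libraries), muscle-like 223 ± 68.9, ciliated-like 193 ± 67.5 (n = 4 libraries), epidermal lineage-like 188 ± 34.0, unnamed 158 ± 36.9, intestine-like 118 ± 57.4 and neoblast-like cells 114 ± 33.8. It was detected in 45.8% of muscle-like and 51.6% of epidermal lineage-like cells. Muscle-like cells had 0.39 ± 0.11 more of it on the log2 scale than all other cells (n = 5 libraries; adjusted p = 0.011, edgeR). At 0 hpa, however, the muscle-like level was below that of all other cells, 110.8 against 132.4 CPM. The call was lost without 18 hpa anterior-facing replicate 1 (0.34, adjusted p = 0.058, edgeR), without the library as a block (0.41, adjusted p = 0.28), with no filter on low counts (0.28, adjusted p = 0.076) and with a marker gate in place of clusters (0.06, adjusted p = 0.70), and under a looser rule for naming clusters the difference was -0.02 (adjusted p = 0.88, edgeR).

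In the fit of muscle-like against all other cells 18.0% of the 12478 contigs tested were called higher and 26.9% lower. Of the 6 contigs 5 passed the filter on low counts. Leaving aside dd_Smed_v6_2337_0 and the LDB3-like contig, whose values are descriptions, the KY-, ATP2A2- and CACNA1C-like contigs were called higher, by 2.46, 0.39 and 3.53. Contigs used for the clustering are among those tested, and 44.9% were called in either direction.

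Among the other classes, each set against the remaining non-muscle cells, the neuron-like class had more of the KY-like contig, by 4.13 ± 0.26 on the log2 scale (adjusted p = 4.7e-14, edgeR), and more of the CACNA1C-like contig, by 2.68 ± 0.25 (adjusted p = 1.7e-10). For the ATP2A2-like contig the difference was 0.46 ± 0.15 (adjusted p = 0.012), and it did not pass without 18 hpa anterior-facing replicate 2 (adjusted p = 0.056) or without the posterior-facing library (adjusted p = 0.16). In this comparison 58.7% of the 12378 contigs tested were called, 26.5% higher and 32.1% lower. Without the library as a block the neuron-like ATP2A2-like difference did not pass either (0.39, adjusted p = 0.18, edgeR). Ciliated-like cells, tested in 4 libraries, had more of the CACNA1C-like contig by 1.39 ± 0.33 (adjusted p = 0.00032, edgeR), where 68.2% of contigs were called, 27.8% higher and 40.3% lower. Epidermal lineage-like cells had 23 UMIs each of the KY-like and CACNA1C-like contigs in 9309 cells. Both contigs thus entered their fit only through the other cells, and the differences of -3.92 ± 0.33 and -4.60 ± 0.27 are descriptions. The class had more of the ATP2A2-like contig, by 0.45 ± 0.10 (adjusted p = 0.0059, edgeR), where 53.7% of contigs were called, 28.4% lower and 25.3% higher. The ATP2A2-like call was lost without the library as a block (0.445, adjusted p = 0.14, edgeR). Neoblast-like cells had less of the ATP2A2-like contig, by -0.67 ± 0.11 (adjusted p = 0.00025, edgeR, and -0.59 with adjusted p = 0.12 without the block), where 65.8% of contigs were called, 31.1% higher and 34.7% lower, and their KY-like and CACNA1C-like differences did not pass (0.59 ± 0.31 and 0.10 ± 0.25). Intestine-like cells had 2 UMIs of the CACNA1C-like contig in 548 cells, so that it entered their fit only through the other cells. Its fitted difference of -2.495 ± 0.82 is therefore a description. Of the contigs tested there 34.6% were called, 15.1% higher and 19.5% lower.

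The muscle-like cells were not uniform for these contigs. Clusters 12 and 20 held 904 and 516 of the 2136 cells, and cluster 15 held the rest. Cluster 20 had the highest level of the LDB3-like, KY-like and CACNA1C-like contigs in all 5 libraries, cluster 12 had more CACNA1C-like than cluster 15 in all 5, and dd_Smed_v6_2337_0 was higher in cluster 12 than in cluster 20 in all 5. Pooled over libraries, the LDB3-like contig was at 95.4 CPM in cluster 20, 17.7 in cluster 12 and 2.99 in cluster 15. The CACNA1C-like contig was at 198, 75.9 and 35.4 CPM in the same order, and the KY-like contig at 50.6, 22.25 and 18.8 CPM. The ATP2A2-like contig was at 183, 225 and 251 CPM. It was lower in cluster 20 than in cluster 15 in all 5 libraries and than in cluster 12 in 4, while cluster 15 was above cluster 12 in 3 of 5. Of the 168 muscle-like cells with an LDB3-like UMI, 112 were in cluster 20, 49 in cluster 12 and 7 in cluster 15, and 164 of them also had dd_Smed_v6_2337_0. The clusters differed in the same direction in the summed muscle markers used to name them, which came to between 20150 and 35558 CPM per library in cluster 20, 4910 to 11021 in cluster 12 and 1147 to 2324 in cluster 15, and in the opposite direction in the summed neoblast markers, at 85.0 to 291, 441 to 703 and 1162 to 1793 CPM. Summed neuron markers were also highest in cluster 20, at 439 to 757 CPM, against 155 to 301 in cluster 12 and 77.7 to 226 in cluster 15. The same held for summed nephridia markers, at 403.5 to 570, 109.8 to 193 and 35.85 to 61.1 CPM. As the clusters were found from contigs that vary with these, their differences were not tested.

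**Figure D2:**
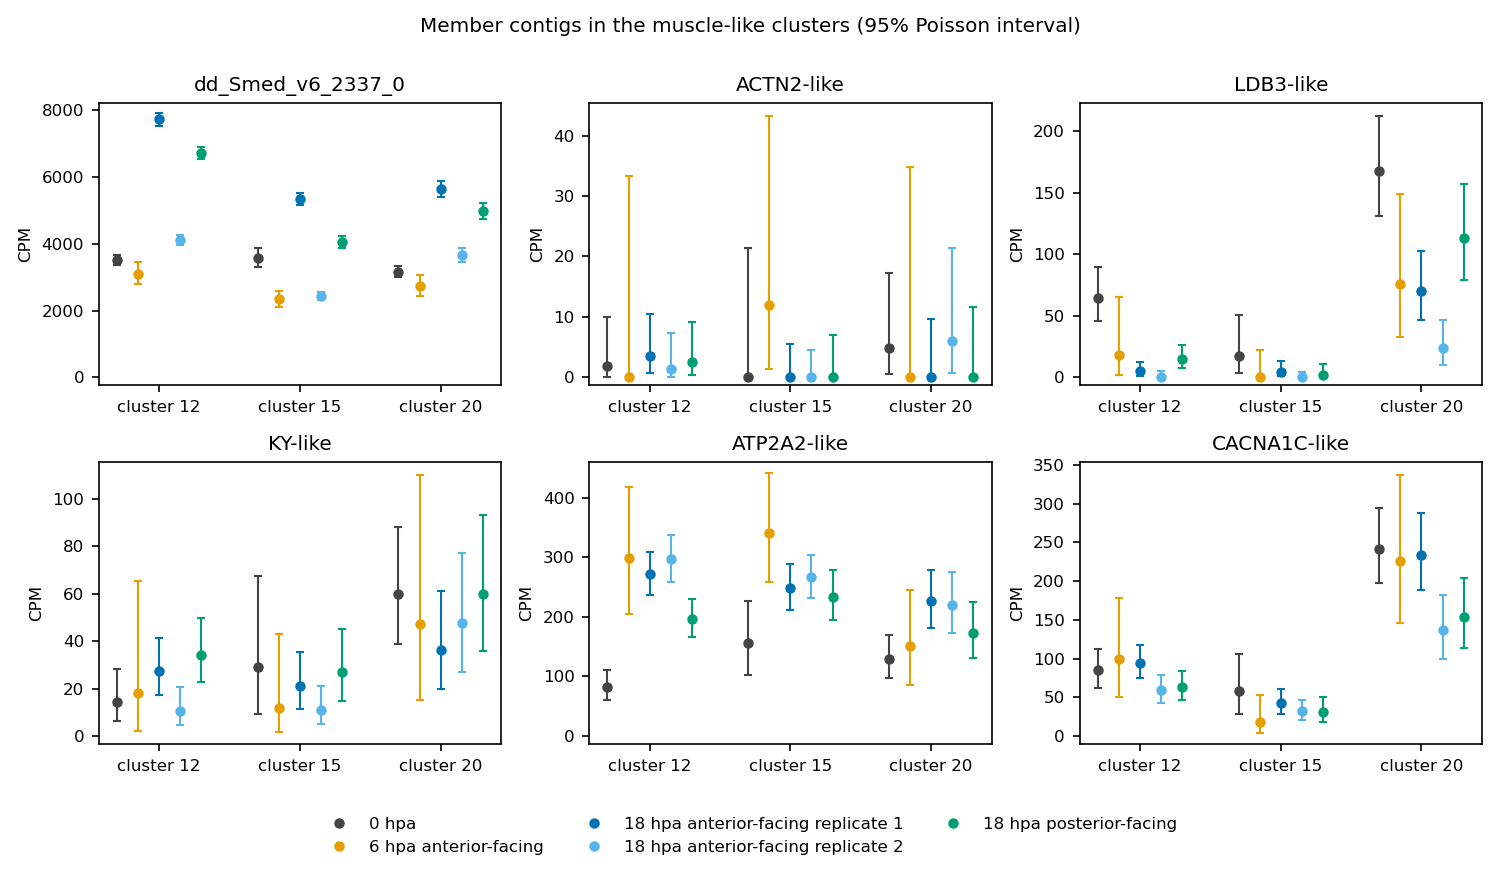
Level (y axis, CPM, linear, differing between panels) of the 6 contigs in the muscle-like clusters 12, 15 and 20 (x axis), 1 point per library with its 95% Poisson interval. Cluster 20 was highest in every library for the LDB3-like, KY-like and CACNA1C-like contigs, while the ATP2A2-like contig was lower at 0 hpa than at 6 hpa or 18 hpa in all 3 clusters.

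Across times the contigs did not share a direction in muscle-like cells. With 1 library for most conditions no test between them was made, and the intervals of the ratios below cover counting error only. The muscle-like class was 7.88% of the cells at 0 hpa, 5.19% at 6 hpa, 12.6% and 9.36% in the 18 hpa anterior-facing replicates and 10.2% in the posterior-facing library. Its make-up differed too, since cluster 20 was 38.8% of it at 0 hpa, 26.7% at 6 hpa and between 18.3% and 21.4% at 18 hpa, and cluster 15 was 15.2% at 0 hpa and between 31.9% and 42.9% in the other libraries. The summed muscle markers of the class came to 18594 CPM at 0 hpa, 9835 at 6 hpa and 12550, 6115 and 10240 at 18 hpa (anterior-facing replicates 1 and 2, posterior-facing). Ratios within the clusters are therefore given beside those of the class.

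The LDB3-like contig was highest at 0 hpa. The ratio to 0 hpa was 0.274 (0.128–0.523) at 6 hpa, 0.190 (0.125–0.2815) and 0.0438 (0.0185–0.0894) in the 18 hpa anterior-facing replicates and 0.3165 (0.221–0.447) in the posterior-facing library. Within cluster 20, where it was best detected, the ratios were 0.451 (0.187–0.938), 0.419 (0.258–0.662), 0.142 (0.0588–0.295) and 0.675 (0.439–1.02), so that the posterior-facing wound was not distinguishable from 0 hpa there. Within cluster 12 they were 0.279 (0.0326–1.085), 0.07395 (0.0191–0.206), 0, with an upper limit of 0.0784, and 0.235 (0.111–0.462). Cluster 15 had at most 3 UMIs in any library. Free RNA also had most of it at 0 hpa, at 7.82 CPM against 0 to 4.24 CPM in the other libraries, and its part was not tested. The share of muscle-like cells with a UMI was 21.4% at 0 hpa (17.5–25.7, exact binomial), 4.19% at 6 hpa and 5.79%, 1.10% and 9.01% at 18 hpa, and with each cell thinned to 500 UMIs it was 4.43%, 1.32%, 1.01%, 0.259% and 1.71%.

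The replicates of the 18 hpa anterior-facing wound differed by more than counting error. Replicate 2, from the animals fed *unc-22* dsRNA, had 0.231 times the LDB3-like level of replicate 1 (0.09225–0.508), 0.582 times the CACNA1C-like level (0.459–0.736) and 0.514 times the level of dd_Smed_v6_2337_0 (0.498–0.530). The ratios were 0.634 (0.397–1.002) for the KY-like and 1.06 (0.936–1.205) for the ATP2A2-like contig. Its summed muscle markers were also lower, at 6115 against 12550 CPM in the class and 20150 against 33837 CPM in cluster 20. The treatment, the library and any difference between the pools of animals cannot be told apart.

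The CACNA1C-like contig was also highest at 0 hpa in the class as a whole, with ratios of 0.718 (0.490–1.03) at 6 hpa, 0.759 (0.613–0.942) and 0.442 (0.345–0.565) in the 18 hpa anterior-facing replicates and 0.512 (0.399–0.656) in the posterior-facing library. Within cluster 12 the intervals of all 4 ratios included 1 (0.696 to 1.18), and within cluster 20 those of 18 hpa anterior-facing replicate 2 (0.564, 0.389–0.807) and of the posterior-facing wound (0.637, 0.443–0.905) did not. Within cluster 15 all 4 intervals included 1. In neuron-like cells all 4 ratios to 0 hpa had intervals that included 1.

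The ATP2A2-like contig was lowest at 0 hpa. Its ratio to 0 hpa in muscle-like cells was 2.49 (1.91–3.25) at 6 hpa, 2.30 (1.885–2.82) and 2.44 (2.01–2.99) in the 18 hpa anterior-facing replicates and 1.84 (1.496–2.28) in the posterior-facing library. In cluster 12 the ratios lay between 2.375 and 3.61, all with intervals above 1, and in cluster 15 between 1.498 and 2.18, where that of the posterior-facing wound included 1 (0.981–2.37). In cluster 20 they lay between 1.17 and 1.75, and only the 18 hpa anterior-facing libraries had intervals above 1. In other classes most ratios were above 1 too, and so were those of the free RNA levels given above, which were lowest at 0 hpa. In neuron-like cells the ratios were 1.20 (0.662–2.05), 1.87 (1.47–2.39), 1.985 (1.55–2.55) and 1.96 (1.53–2.53), in neoblast-like cells 2.30 (1.795–2.97), 2.07 (1.58–2.74), 1.85 (1.43–2.41) and 1.47 (1.115–1.94), and in epidermal lineage-like cells 1.56 (1.43–1.705), 1.17 (1.08–1.26), 1.15 (1.08–1.23) and 1.085 (1.01–1.17). Among these ratios the interval of neuron-like cells at 6 hpa included 1 and the others lay above it. The epidermal lineage-like class was made up of different clusters in different libraries. The 6 hpa library gave 822 of the 837 cells of cluster 13 (286 CPM) and the 0 hpa library 1341 of the 1925 of cluster 2 (160.5 CPM). Of the 1606 cells of cluster 3 (169 CPM), 1481 came from 18 hpa anterior-facing replicate 2. In intestine-like cells the ratio was 0.9035 (0.534–1.57) at 6 hpa.

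**Figure D3:**
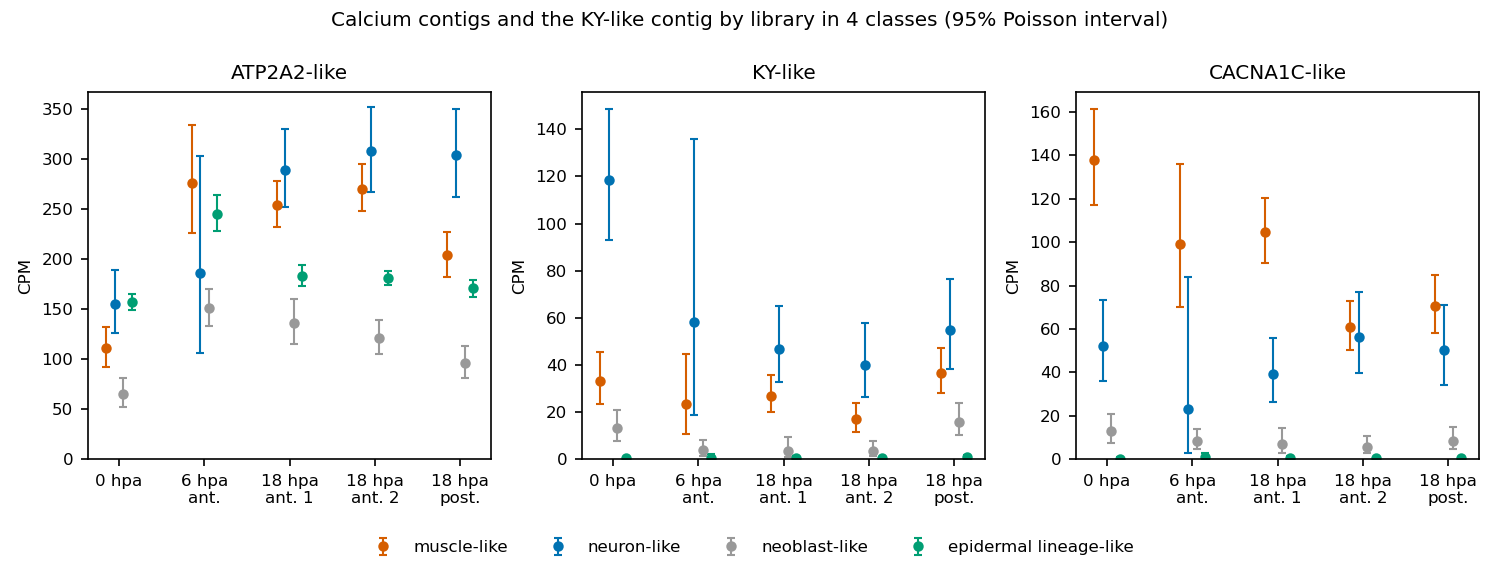
Level (y axis, CPM, linear) of the ATP2A2-like, KY-like and CACNA1C-like contigs in muscle-like, neuron-like, neoblast-like and epidermal lineage-like cells by library (x axis; ant., anterior-facing; post., posterior-facing), with 95% Poisson intervals. The ATP2A2-like contig was lowest at 0 hpa in all 4 classes, and the KY-like contig was above muscle in neuron-like cells in every library.

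In muscle-like cells the KY-like contig had ratios to 0 hpa of 0.707 (0.301–1.49), 0.817 (0.5265–1.28), 0.518 (0.315–0.849) and 1.11 (0.728–1.715) in the same order of libraries, of which only that of 18 hpa anterior-facing replicate 2 had an interval that left out 1. Within clusters that library's intervals included 1, at 0.727, 0.381 and 0.793 in clusters 12, 15 and 20. In cluster 12 the posterior-facing ratio was 2.38 (1.05–6.06), on 27 against 8 UMIs, and all other intervals within clusters included 1. In neuron-like cells it was highest at 0 hpa, with ratios of 0.4915 (0.155–1.20), 0.396 (0.258–0.5965), 0.337 (0.208–0.529) and 0.4645 (0.302–0.703). Free RNA had it at 15.6 CPM at 0 hpa and 2.785 to 10.96 CPM in the other libraries, and its part was not tested. Whether the neuron-like and muscle-like ratios differ was not tested.

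dd_Smed_v6_2337_0 was higher than at 0 hpa in 2 of the 3 libraries of 18 hpa, by 1.90 times (1.835–1.97) at anterior-facing replicate 1 and 1.63 times (1.57–1.69) at the posterior-facing wound, whereas anterior-facing replicate 2 was at 0.9775 (0.939–1.02) and 6 hpa at 0.786 (0.733–0.842). Within clusters 12 and 20 replicate 1 was again the highest library, with ratios at 18 hpa of 2.20, 1.17 and 1.916 and of 1.78, 1.16 and 1.57 (anterior-facing replicates 1 and 2, posterior-facing). In cluster 15 they were 1.495, 0.682 and 1.136.

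**Figure D4:**
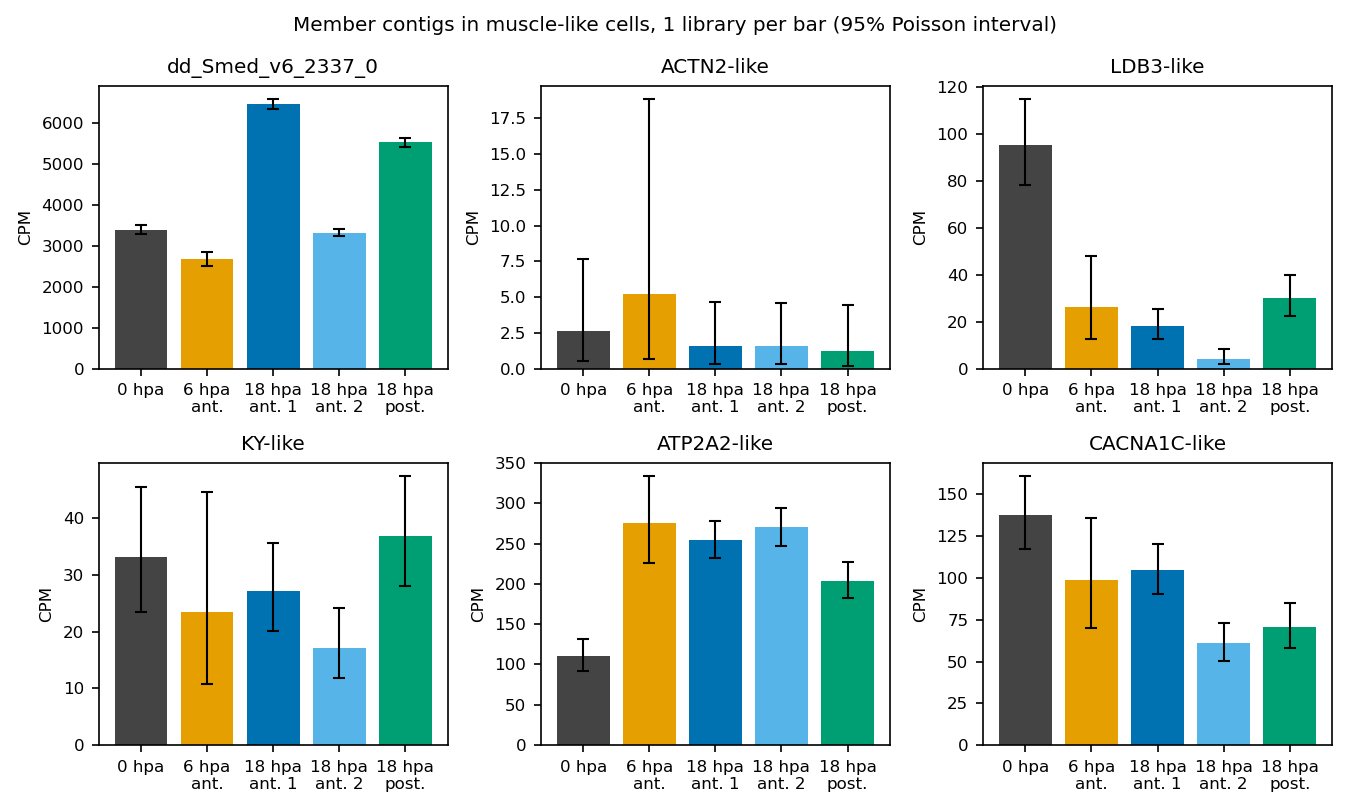
Level (y axis, CPM, linear, from 0) of the 6 contigs in muscle-like cells of each library (x axis), with 95% Poisson intervals. The LDB3-like and CACNA1C-like contigs were highest at 0 hpa (95.1 and 138 CPM) and the ATP2A2-like contig lowest there (111 CPM), and the ACTN2-like level rests on 2 or 3 UMIs per library.

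The wound sides could be compared only within 18 hpa. The anterior-facing replicates lay on either side of the posterior-facing wound for dd_Smed_v6_2337_0 (1.17 and 0.600 times) and for the CACNA1C-like contig (1.48, 1.17–1.88, and 0.863, 0.661–1.13). Both replicates were lower for the LDB3-like contig, at 0.600 (0.376–0.949) and 0.1385 (0.0566–0.295) times the posterior-facing level, and for the KY-like contig, at 0.735 (0.496–1.09) and 0.466 (0.295–0.725) times. Within clusters, however, the interval of replicate 1 included 1 in each cluster for both contigs, as in cluster 20 for LDB3-like (0.621, 0.3625–1.052), where replicate 2 was at 0.2097 (0.0842–0.459). For KY-like only cluster 12 of replicate 2 left out 1 (0.305, 0.120–0.691). Both were higher for the ATP2A2-like contig, at 1.25 (1.08–1.44) and 1.33 (1.15–1.53) times. Within cluster 12 the ATP2A2-like ratios were 1.38 (1.12–1.71) and 1.51 (1.225–1.86), and within clusters 15 and 20 their intervals included 1. With 1 posterior-facing library, side and library cannot be told apart.

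The same gene list names other contigs for the contractile apparatus, its attachment and calcium. Of 17 related contractile or attachment contigs 11 could be tested in muscle-like against all other cells, of which 2 were higher, 2 were lower and 7 did not pass, with a median log2 fold change of -0.075, against -0.072 over all contigs tested, of which 18.0% were higher and 26.9% lower. The higher ones were the FHL3-like contig dd_Smed_v6_10293_0, a LIM-domain protein of muscle, at 1.44 ± 0.39, and the CFL1-like contig dd_Smed_v6_10403_0, cofilin, which severs actin filaments, at 1.35 ± 0.13 (adjusted p = 7.7e-06, edgeR). Both contigs were higher in muscle-like cells in all 5 libraries. The FHL3-like contig passed the filter on low counts only through its 33 muscle-like UMIs. Its value is therefore a description, which the count of higher contigs includes. The lower ones were the SYNE1-like contig dd_Smed_v6_10282_0, named for nesprin-1, which links the nucleus to the cytoskeleton, at -2.73 ± 0.33 (adjusted p = 5.8e-05, edgeR), and the LMO7-like contig dd_Smed_v6_10011_0, named for a protein of cell junctions, at -1.86 ± 0.24 (adjusted p = 8.9e-05). The contigs named for actins could not be tested, with at most 2 UMIs in all cells.

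Of 15 related calcium contigs 6 could be tested. None was higher, also at an unadjusted p under 0.05, 2 were lower and 4 did not pass, with a median of -1.09, beside the same 18.0% and 26.9% over all contigs. The median and the count of lower contigs include the CACNA2D3-like and KCNQ1-like contigs, whose values are descriptions. The CACNA2D3-like contig dd_Smed_v6_10409_0 is named for an auxiliary subunit of voltage-gated calcium channels. It had 1 UMI in muscle-like cells among 223 and entered the fit only through the other cells, so that its -4.03 ± 0.83 is a description. The other lower one was the KCNQ1-like contig dd_Smed_v6_10387_0, named for a potassium channel, at -2.22 ± 0.43. With 10 UMIs in muscle-like cells among 562, the KCNQ1-like contig also entered the fit only through the other cells, and its value is a description.

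**Figure D5:**
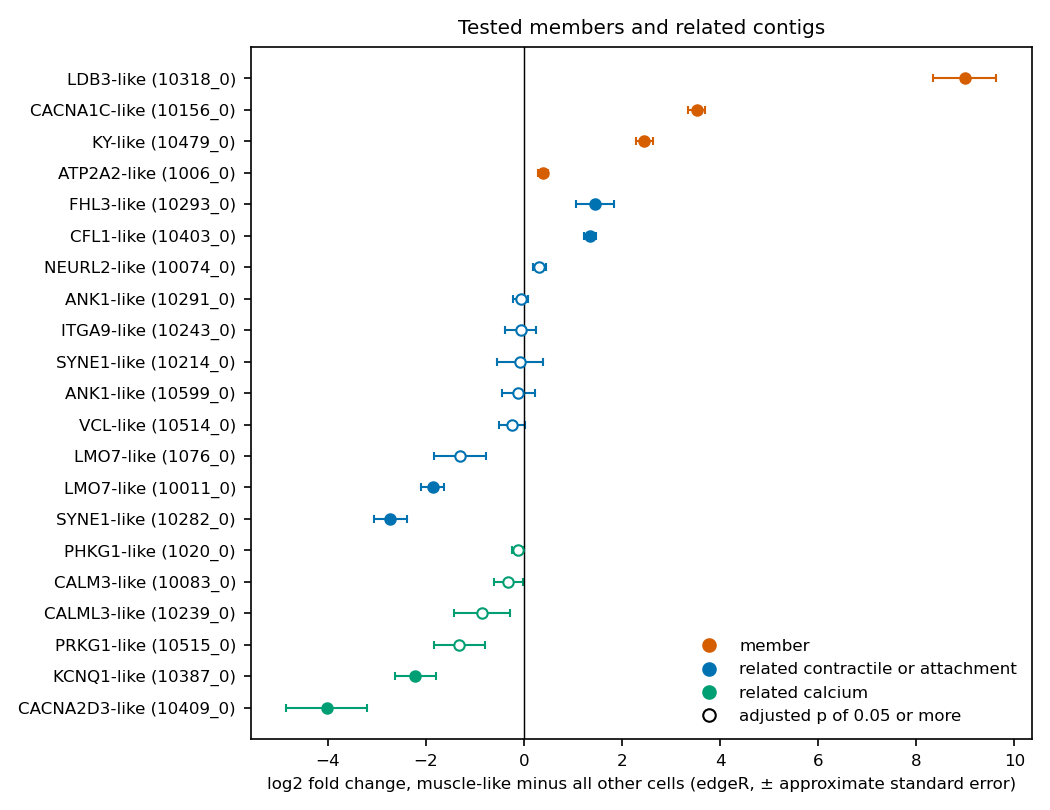
Log2 fold change of muscle-like minus all other cells (x axis, edgeR, bars show ± the approximate standard error over 5 libraries) for the 4 tested contigs of the set and the 17 tested related contigs, with part of the contig number in parentheses. Filled points had an adjusted p under 0.05. These 4 lay between 0.39 and 8.99 (LDB3-like, a description), and the related contigs between -4.03 (CACNA2D3-like, a description) and 1.44 (FHL3-like, a description). The KCNQ1-like value is a description too.

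The contigs whose levels most resembled those of the 6 contigs were found by Pearson's correlation of log2(CPM + 10) across the 29 clusters, among 12812 contigs with at least 200 UMIs in cells. The clusters share libraries and depth, and the values are descriptions. For the LDB3-like contig they were dd_Smed_v6_9217_0, dd_Smed_v6_6014_0 and dd_Smed_v6_10859_0 (r = 0.995 each), at 48.3, 30.45 and 27.7 CPM in muscle-like and 0.0498, 0.124 and 0.0871 CPM in other cells. For dd_Smed_v6_2337_0 they were dd_Smed_v6_7213_0 and dd_Smed_v6_11388_0 (r = 0.978 each) and dd_Smed_v6_7811_0 (0.970), at 226.5, 272 and 718 CPM in muscle-like cells. For the ACTN2-like contig, which has too few UMIs for its own values to be firm, they were dd_Smed_v6_11681_0, dd_Smed_v6_2928_0 and dd_Smed_v6_2736_0 (r between 0.968 and 0.972).

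For the KY-like contig the most similar contigs were dd_Smed_v6_8576_0 (r = 0.907), dd_Smed_v6_8895_0 (0.900) and dd_Smed_v6_5761_0 (0.882), which were also found in both classes, at 34.0, 67.8 and 34.2 CPM in muscle-like and 52.5, 158 and 36.4 CPM in neuron-like cells. For the CACNA1C-like contig they were dd_Smed_v6_13475_0 (r = 0.970), dd_Smed_v6_8259_0 (0.955) and dd_Smed_v6_8579_0 (0.952), at 83.6, 82.0 and 114 CPM in muscle-like and 63.6, 86.4 and 106 CPM in neuron-like cells. For the ATP2A2-like contig they were dd_Smed_v6_7119_0 (0.856), dd_Smed_v6_3001_0 (0.840) and dd_Smed_v6_9447_0 (0.823), which were found in muscle-like, neuron-like and other cells alike, at 71.1 to 101, 83.9 to 115.4 and 54.7 to 82.5 CPM. Among the 6 contigs themselves the ACTN2-like and LDB3-like contigs were most alike across clusters (r = 0.906), followed by dd_Smed_v6_2337_0 with ACTN2-like (0.874) and LDB3-like (0.762), and the ATP2A2-like contig was least like LDB3-like (0.127).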

How the data were processed

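The deposited files hold raw UMI counts per contig and barcode, made by the authors with Cell Ranger (CASAVA 1.9 and Seurat are also named in the submitters' processing notes) on Smed_v6 contigs that were placed on the Smes_g4 genome and collapsed by location. Only these counts were used. Cells were the barcodes with 200 to 2500 genes and a UMI total no lower than 10% of that at percentile 99 among the 10000 largest barcodes. The 2000 most variable contigs, without the 6 contigs described, were scaled within each library, reduced to 11 principal components and clustered (20 neighbours, Leiden resolution 1; scanpy 1.11.5). A marker was counted as leading a cluster if its level was 2-fold or more that of the median cluster. A class needed at least 3 leading markers and 40% of its markers, a rule set after the clusters and levels had been seen. Of 89 marker contigs 87 were present. A doublet caller marked at most 0.41% of cells in any library, and whether it missed doublets was not tested. No doublets were removed, except in an alternative setting that left out the marked cells.

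For each class the UMIs of a library were added up, and these sums were compared by the quasi-likelihood test of edgeR 4.0.16 (TMM, filterByExpr, library as a block, Benjamini-Hochberg over all contigs, threshold 0.05). The library pairs the sums, since each library gave both sums. Standard errors are approximate, from the ratio of the log2 fold change to the root of the F statistic. On simulated counts for the muscle-like comparison (12955 contigs) 61% of 2-fold and 95% of 4-fold changes were recovered, and 1.9% of calls were false. The simulated contigs shared a fixed spread, the libraries differed only in depth, and few contigs were changed. In the real fit 44.9% of contigs were called, and these rates may not hold there. The p-values measure the spread between these 5 libraries, which differ in time and wound side. Times and wound sides were compared by ratios of CPM with exact intervals, and summarised on log2(CPM + 0.5). Cells were also thinned to 500 UMIs. The contigs, gene lists and markers were chosen with earlier results of these data known. The named contigs are the 6, the highest and lowest related contigs past the threshold in each list, and the 3 contigs most like each of the 6. Other settings (DESeq2 1.42.0, filters, cell rules, clustering, naming, leaving out each library) are described at the end. The authors' cluster names and sequences of the contigs were not used here.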

Additional observations from a re-analysis of the deposited data

How the results depend on the processing

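The KY- and CACNA1C-like contigs were called higher in muscle-like cells in each of the 19 other settings. The log2 differences over these settings ran from 1.35 to 2.50 (KY-like) and from 1.70 to 3.93 (CACNA1C-like). With no minimum share of markers for naming, the muscle-like class held 6039 cells, against 2136 in the main setting. The LDB3-like values are descriptions, since it enters the fit only through its muscle-like UMIs, and it did not pass the filter with cells under 10% mitochondrial UMIs, with a marker gate in place of clusters, with no minimum share of markers for naming (chosen after seeing the data) or without cluster 20. Leaving out each library moved the log2 differences between 7.73 and 9.85 (LDB3-like), 2.42 and 2.50 (KY-like), 3.31 and 3.65 (CACNA1C-like), 0.34 and 0.50 (ATP2A2-like) and 8.11 and 8.70 (dd_Smed_v6_2337_0). dd_Smed_v6_2337_0 was at 7.475 with the marker gate, 6.62 with no minimum share and 9.21 with named classes weighted alike. The ATP2A2-like difference was 0.28 with no filter on low counts (adjusted p = 0.076, edgeR), 0.059 with the marker gate (0.70) and -0.022 with no minimum share (0.88).

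Without the replicate block, that is, without pairing by library, the ATP2A2-like differences no longer passed in muscle-like (0.41), epidermal lineage-like (0.445), neoblast-like (-0.59) and neuron-like cells (0.39), and no other call of the 6 contigs was lost. In neuron-like cells ATP2A2-like also did not pass with no filter (0.24) or with DESeq2 (0.32), and lay between 0.31 and 0.55 when a library was left out. In intestine-like cells it passed with no filter (-0.52), at 0.5 times the resolution (-0.57), with the 6 contigs allowed in clustering (-0.34) and under 10% mitochondrial UMIs (-0.73), and lay between -0.55 and -0.29 when a library was left out. When a library was left out the intestine-like values of CACNA1C-like lay between -3.24 and -2.155 and of KY-like between -8.50 and -1.355, the ciliated-like values of ATP2A2-like between -0.375 and -0.17, and the neoblast-like values of KY-like between 0.25 and 0.80. KY-like passed with no upper limit on genes in ciliated-like (2.20) and neoblast-like cells (0.85), and in the latter with no minimum share (1.045). The contigs called were 6144 for ciliated-like with at least 1000 UMIs per cell and 6330 for intestine-like with no upper limit on genes, against 9688 and 4014.

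For 18 hpa over 0 hpa in muscle-like cells the mean log2 ratios were -2.79 (LDB3-like), -0.355 (KY-like), 1.12 (ATP2A2-like) and -0.84 (CACNA1C-like). In cluster 12 they were -4.24, 0.56, 1.60 and -0.26. The ATP2A2-like ratio was 0.67 in cluster 15, 0.66 in cluster 20, 0.83 with the marker gate, 0.86 with no minimum share and 1.55 after thinning. The CACNA1C-like ratio was -1.25 under 10% mitochondrial UMIs and -0.37 with no minimum share. For anterior-facing over posterior-facing wounds LDB3-like was -1.72 (-3.27 in cluster 12), CACNA1C-like 0.18 (-0.43 after thinning) and ATP2A2-like 0.36 (0.53 in cluster 12, 0.14 in cluster 15, 0.24 under 10% mitochondrial UMIs or with the marker gate and 0.23 with no minimum share). The values after thinning, 1.55 and -0.43, were not borne out by the share of thinned muscle-like cells with a UMI. For CACNA1C-like this share was 5.16% and 3.06% in anterior-facing replicates 1 and 2, on either side of the posterior-facing 3.72%. For ATP2A2-like it was 5.06% at 0 hpa. At 18 hpa it was 11.6%, 12.4% and 9.12% (anterior-facing replicates 1 and 2, posterior-facing), each a smaller rise than 1.55. The causes of the differences between settings were not tested. Depth limits the ACTN2-like contig throughout, and the LDB3-like contig outside cluster 20.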
